A study of Mus musculus with 20 samples.

Results

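The 10 genes described here, Bmal1, Clock, Npas2, Per1, Per2, Per3, Cry1, Ciart, Nr1d1 and Dbp, build the mammalian circadian clock and were followed in rat lung. They were chosen by name from the deposited gene table, and each symbol matched 1 row, which gives 10 of 23799 genes in the table and 10 of the 15875 genes tested. All 10 reached 0.5 FPKM (fragments per kilobase of transcript per M mapped fragments, M for mega) in at least 5 libraries, the limit for testing. Of the members, 9 reached it in all 20 libraries, and Ciart in 11 of 20, of which 3 were from bleomycin females, 5 from bleomycin males, 0 from sham females and 3 from sham males. Other genes tied to the clock, 21 in number, were counted beside them.

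The animals were Sprague Dawley rats, an outbred laboratory stock, and whole-lung messenger RNA was read from 5 bleomycin females, 5 bleomycin males, 5 sham females and 5 sham males. Bleomycin, a DNA-breaking antibiotic, was used to injure the lung, and the sham animals are the uninjured controls of the same sex. The series title puts its question as the difference between the sexes in this injury. The labels give no age, no further genotype, and neither dose, route, day of tissue collection nor time of day, so each library is a single snapshot of a daily cycle at an unstated hour.

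The clock is a feedback loop of transcription and translation. BMAL1 pairs with CLOCK or NPAS2 and switches on the genes for PER and CRY, which come back to block the pair, and also those for REV-ERB alpha (Nr1d1), CIART and the output factor DBP. REV-ERB alpha in turn represses Bmal1, Clock and Npas2, so in rodent tissues, lung included, Bmal1 and Npas2 are high when Dbp and Nr1d1 are low and the reverse.

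The libraries held 68.6 to 87.5 M counts each. Counts pile up at multiples of 4, and if 4 counts stand for 1 read pair the depth was 17.2 to 21.9 M pairs. Members ran from 11 counts (the lowest library of Ciart) to 14954 (the highest of Nr1d1). Alveolar type 2 markers, which define lung, summed to 9050 to 15053 FPKM in bleomycin females, 3354 to 13270 in bleomycin males, 13885 to 17331 in sham females and 11731 to 15080 in sham males, none of the 5 genes being at 0. In 5 libraries a marker of a neighbouring organ (Alb of liver, Acta1 of skeletal muscle, Adipoq of fat or Myl7 of atrial muscle) reached 50 FPKM. These were bleomycin male 2 and bleomycin male 5, sham female 1, sham male 3 and sham male 5. The numbers after a group's name are the labels' replicate numbers, each library is from its own animal, and values are listed in the order of replicates 1 to 5.

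In bleomycin lungs of both sexes the activators Bmal1 and Npas2 were lower than in sham lungs, and Ciart and the output gene Dbp were higher. In males Clock and Nr1d1 also fell and Per2 rose. In females Cry1 also fell and Per3 rose. A call in 1 sex only does not show a difference between the sexes, for which 0 of the 10 genes passed. The male call of Nr1d1 was lost under 14 of 29 alternative fits and the female call of Cry1 under 18 of 29. The hour at which each group was collected is not stated. A difference in hour therefore cannot be told apart from treatment here, nor from sex in the comparisons further on. A gene is said to rise or fall where its adjusted p was under 0.05 in edgeR's quasi-likelihood test over all 15875 genes. The ± after a log2 fold change is its standard error, derived from the fold change and the test's F statistic. Each group had n = 5, and fewer where libraries were left out.

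In females, bleomycin against sham, 3 of the 10 genes rose, where 13.2% of all tested genes did, and 3 fell, where 8.38% did. Of those 6 genes, 5 changed at least 2-fold, a share of 5 in 10 against 7% of all tested genes. Ciart is among the 5, and 0 sham females had it at the limit for testing. In males 3 of 10 rose against a background of 22.6%, and 4 of 10 fell against 19.3%. Of those 7, 4 changed at least 2-fold, against 12.7% of all genes. The share of members that rose in males lies close to the background. Without the 5 neighbouring-organ libraries 5 members passed in females and 2 in males (Clock and Npas2). That fit left out bleomycin males 2 and 5, sham males 3 and 5 and sham female 1. It thus lost mainly males. The male values in that fit were −0.49 for Bmal1, 0.56 for Per2, 1.14 for Ciart, 0.78 for Dbp and −1.23 for Nr1d1. With all libraries they were −0.72, 1.28, 1.35, 1.40 and −0.95 in the same order. The part of the lower number of animals in the lost calls was not tested. Without bleomycin female 5 alone the count in females was 3, and without bleomycin male 5 alone the count in males was 4. With the mitochondrial percent of counts as a covariate (5.43 to 9.56% in bleomycin males, 4.42 to 7.63% in sham males) 4 members passed in males, and with limma on log2(FPKM + 0.1) 3 passed in females. The median log2 fold change of the members was 0.44 in females and −0.01 in males, against −2.4e-05 and 0.04 over all tested genes, with members moving in both directions.

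**Figure D1:**
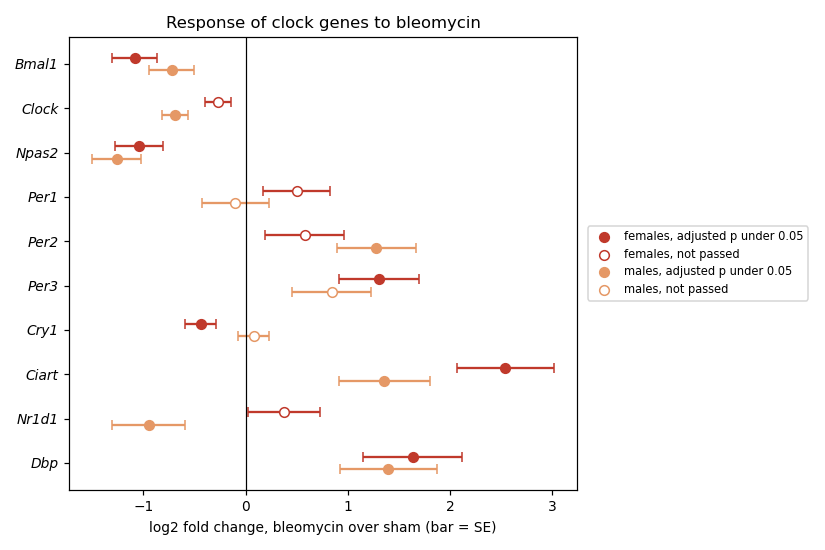
Log2 fold change of bleomycin over sham (x axis) for each clock gene (rows), for females and males, with bars for ± 1 standard error and filled points for an adjusted p under 0.05. Bmal1 and Npas2 lie left of 0 and Dbp and Ciart right of it in both sexes, while Nr1d1 lies at 0.38 in females and −0.95 in males.

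The FPKM values of bleomycin and sham lungs did not overlap for 3 members in females, against 23.7% of all tested genes, and for 3 in males, against 22.6%. In females these were Bmal1 and Npas2, both lower, and Ciart, higher. In males they were Bmal1, Clock and Npas2, all lower. A share of 3 in 10 is close to the background in both sexes.

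Bmal1 encodes the shared partner of the activating pair and lies on chromosome 1 from 167331633 to 167430231 on the plus strand. The labels name a late Ensembl release together with the older Rnor 6.0 assembly, so these and the later positions stand as in the table and their build is uncertain. Bmal1 was at 7.96, 7.87, 5.67, 9.00 and 3.56 FPKM in bleomycin females, against 16.2, 14.7, 15.3, 12.2 and 13.1 FPKM in sham females. In males it was at 7.82, 6.76, 6.22, 7.83 and 3.92 FPKM after bleomycin, against 11.4, 11.3, 12.6, 9.01 and 8.56 FPKM in sham lungs. Every bleomycin lung was below every sham lung of its sex, and the lowest lung of each bleomycin group was replicate 5. Bmal1 fell by 1.09 ± 0.22 on the log2 scale in females (adjusted p = 0.0013) and by 0.72 ± 0.22 in males (adjusted p = 0.012). Without the libraries carrying neighbouring-organ markers the male value was −0.49, with an adjusted p of 0.158, and over all alternatives the male adjusted p ran from 0.00311 to 0.158.

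Npas2, which encodes a stand-in for CLOCK, lies on chromosome 9 from 41463830 to 41642320 on the plus strand. It was at 6.01, 6.71, 3.703, 7.51 and 3.49 FPKM in bleomycin females, against 13.1, 12.5, 10.98, 9.25 and 9.89 FPKM in sham females. Bleomycin males had 5.22, 5.39, 2.25, 6.404 and 3.54 FPKM, against 10.4, 11.8, 12.3, 9.36 and 9.31 FPKM in sham males. The groups were apart in both sexes, with replicates 3 and 5 lowest in each bleomycin group. Npas2 fell by 1.04 ± 0.24 in females (adjusted p = 0.0036) and by 1.26 ± 0.24 in males (adjusted p = 0.00042). It passed under all 29 alternatives in each sex.

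Clock, the gene of the other partner, lies on chromosome 14 from 31908566 to 31990400 on the plus strand. It was at 6.83, 8.80, 7.77, 8.23 and 7.38 FPKM in bleomycin females, against 10.4, 9.11, 8.87, 8.95 and 8.79 FPKM in sham females. Bleomycin males had Clock at 6.33, 5.72, 3.17, 6.57 and 6.01 FPKM, against 9.49, 9.21, 9.17, 7.94 and 7.70 FPKM in sham males. The male groups were apart, with bleomycin male 3 lowest, and the female groups touched at bleomycin female 2. Clock fell by 0.69 ± 0.13 in males (adjusted p = 0.00031, passed under all 29 alternatives). In females its log2 fold change was −0.27 ± 0.13 (adjusted p = 0.14), and it passed there when only the female groups were fitted (adjusted p = 0.0163) or with limma-voom and sample weights (0.0109).

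**Figure D2:**
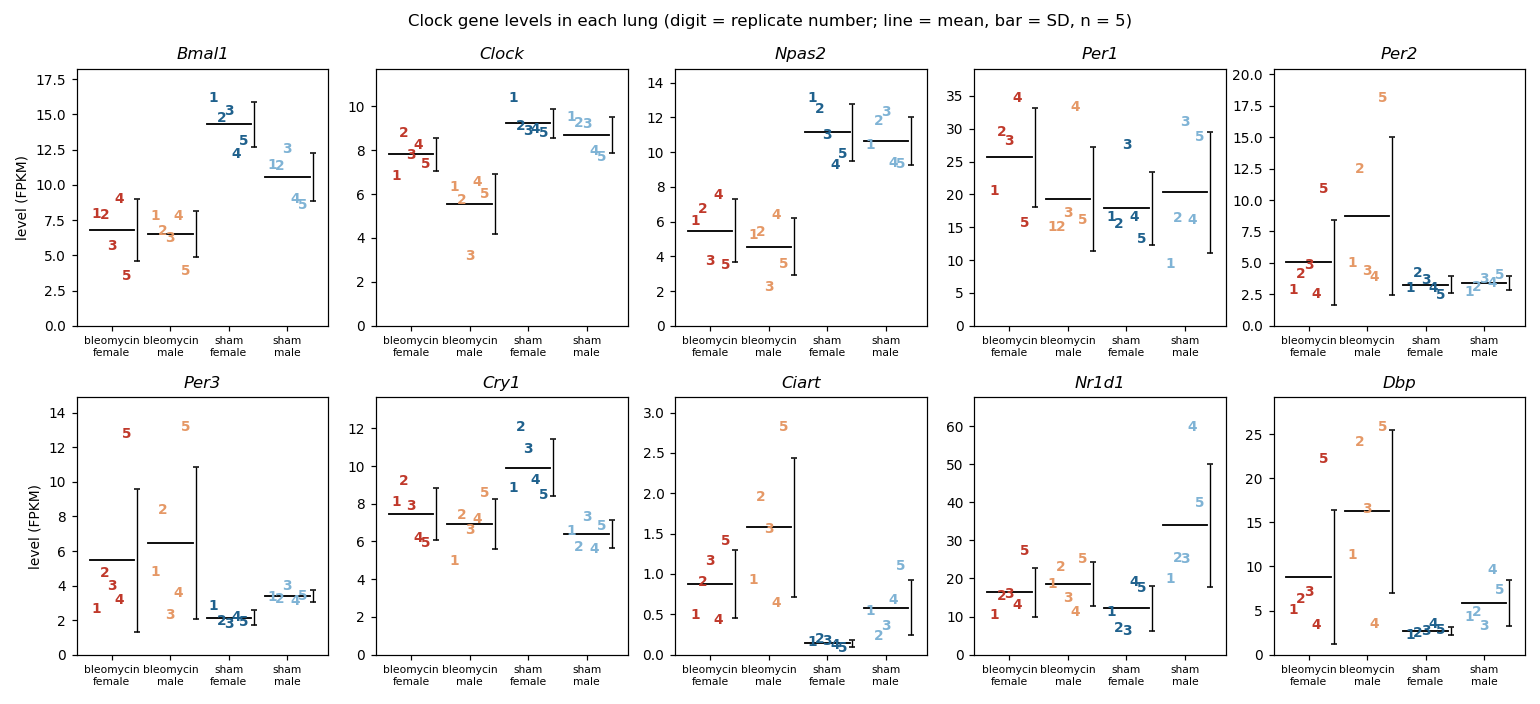
FPKM (y axis, from 0) of each clock gene in every lung, 1 panel per gene, with bleomycin females, bleomycin males, sham females and sham males from left to right. Digits are replicate numbers, lines the group means and bars the SD (n = 5). Replicate 5 of both bleomycin groups is the highest lung for Per2 and Per3, at 10.9 and 18.1 FPKM for Per2.

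The Period genes encode the PER repressors. Per2 lies on chromosome 9 from 92007296 to 92049459 on the minus strand, and Per3 on chromosome 5 from 161459533 to 161495607, also minus. Per2 was at 2.82, 4.12, 4.81, 2.56 and 10.9 FPKM in bleomycin females, against 3.03, 4.18, 3.63, 3.01 and 2.47 FPKM in sham females. In bleomycin males it was at 5.01, 12.4, 4.32, 3.91 and 18.1 FPKM, against 2.69, 3.11, 3.72, 3.44 and 4.06 FPKM in sham males. In females replicate 3 lay slightly and replicate 5 far above the sham range. In males all lungs but bleomycin male 4 were above it, with replicates 2 and 5 far up. Per2 rose by 1.28 ± 0.39 in males (adjusted p = 0.013), while its value in females was 0.58 ± 0.39 (adjusted p = 0.31). With the mitochondrial percent of counts as a covariate the calls changed places, with 1.133 in females (adjusted p = 0.021) and 0.67 in males (adjusted p = 0.0922). The female adjusted p ran from 0.021 to 0.944 over all alternatives.

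The male rise of Per2 was 0.86 without bleomycin male 5, with an adjusted p of 0.059. Without the 5 neighbouring-organ libraries it was 0.56 (adjusted p = 0.299), and over all alternatives the adjusted p ran from 0.00278 to 0.299. Bleomycin male 2 and bleomycin male 5 are 2 of those 5 libraries, with Alb at 63.2 and 97.0 FPKM, and bleomycin male 5 also had Adipoq at 75.0 and Myl7 at 59.4 FPKM. Sham male 5, with Alb at 333 FPKM, had Per2 at 4.06 FPKM. Bleomycin female 5, the highest female lung for Per2, had Alb at 25.6, Adipoq at 0.034 and Myl7 at 0 FPKM. Liver markers as a list summed to 6.34 to 55.3 FPKM in bleomycin females and 13.5 to 159 in bleomycin males, against 8.80 to 75.7 in sham females and 30.7 to 533 in sham males, with 0 of 5 changed in females and 1 of 5 lower in males. Fat markers summed to 1.97 to 12.99 FPKM in bleomycin females and 4.89 to 277 in bleomycin males, against 3.44 to 42.6 in sham females and 3.69 to 17.0 in sham males, with 0 of 4 tested changed in females and 1 of 4 higher in males. For all tested genes the shares were 13.2% higher and 8.38% lower in females, and 22.6% higher and 19.3% lower in males. The fat sum of 277 FPKM was that of bleomycin male 5, and the other bleomycin males had 4.89 to 13.4 FPKM. The part of these markers in the result was not tested.

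Per3 was at 2.66, 4.74, 3.99, 3.17 and 12.7 FPKM in bleomycin females, against 2.85, 1.96, 1.77, 2.18 and 1.91 FPKM in sham females. In bleomycin males it was at 4.81, 8.37, 2.28, 3.57 and 13.2 FPKM, against 3.36, 3.22, 3.95, 3.08 and 3.37 FPKM in sham males. All bleomycin females but replicate 1 were above the sham females, and bleomycin males ran from below to far above the sham males. Per3 rose by 1.31 ± 0.39 in females (adjusted p = 0.021), against 0.84 ± 0.39 in males (adjusted p = 0.088). Without bleomycin female 5 the female value was 0.76, with an adjusted p of 0.104, and over all alternatives that p ran from 0.00331 to 0.104. In males Per3 passed with limma-voom and sample weights (0.96, adjusted p = 0.0227) and without bleomycin male 3 (1.05, adjusted p = 0.0318), and the value was 0.43 without bleomycin male 5 (adjusted p = 0.35). The male adjusted p ran from 0.0227 to 0.791.

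Both genes were more spread in the injured lungs. The coefficient of variation of Per2 was 67.3% in bleomycin females and 71.8% in bleomycin males, against 20.1% in sham females and 15.6% in sham males. For Per3 it was 76.0% and 68.2% in bleomycin females and bleomycin males, against 19.97% and 9.78% in sham females and sham males. The difference in spread was not tested.

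Per1, the Period gene that also answers to hormones and stress signals, lies on chromosome 10 from 53805535 to 53814431 on the plus strand. It ranged from 15.7 to 34.7 FPKM in bleomycin females (median 28.1), against 13.2 to 27.5 in sham females (median 16.5). In bleomycin males it ranged from 15.0 to 33.3 FPKM (median 16.04), against 9.33 to 31.0 in sham males (median 16.4). The groups overlapped in both sexes, and its log2 fold change was 0.50 ± 0.33 in females (adjusted p = 0.3) and −0.10 ± 0.33 in males (adjusted p = 0.83).

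Cry1, for the cryptochrome that carries the block of the activating pair, lies on chromosome 7 from 18529823 to 18594091 on the plus strand. It was at 8.11, 9.22, 7.90, 6.19 and 5.90 FPKM in bleomycin females, against 8.86, 12.1, 10.9, 9.24 and 8.47 FPKM in sham females. Bleomycin males had 4.95, 7.40, 6.59, 7.21 and 8.56 FPKM, against 6.54, 5.73, 7.31, 5.61 and 6.82 FPKM in sham males. Bleomycin female 2 reached into the sham range and the male groups overlapped, with bleomycin males 2 and 5 above and bleomycin male 1 below all sham males. Cry1 fell by 0.44 ± 0.15 in females (adjusted p = 0.045), and the male value was 0.08 ± 0.15 (adjusted p = 0.7). The female call was lost under 18 of 29 alternatives, among them leaving out bleomycin female 5 (−0.35, adjusted p = 0.11), with the adjusted p running from 0.0124 to 0.155.

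Ciart encodes a repressor that binds BMAL1, as known from mouse, and lies on chromosome 2 from 183419819 to 183423313 on the minus strand. It was the lowest member. Ciart met the limit for testing through 3 bleomycin females, 5 bleomycin males and 3 sham males, with 0 sham females at it, so sham lungs alone would not have admitted it. Sham females had 11 to 23 counts, so the female fold change rests on values near the floor. Ciart was at 0.493, 0.903, 1.17, 0.426 and 1.40 FPKM in bleomycin females, against 0.153, 0.197, 0.165, 0.117 and 0.0808 FPKM in sham females. Bleomycin males had 0.929, 1.95, 1.55, 0.643 and 2.82 FPKM, against 0.546, 0.233, 0.358, 0.680 and 1.10 FPKM in sham males. Every bleomycin female was above every sham female, and the male groups overlapped. Ciart rose by 2.54 ± 0.47 in females (adjusted p = 0.00063) and by 1.35 ± 0.44 in males (adjusted p = 0.02). Without bleomycin male 5 the male value was 1.07 (adjusted p = 0.0631), and without the 5 neighbouring-organ libraries 1.14 (adjusted p = 0.119). Over all alternatives the male adjusted p ran from 0.00579 to 0.119.

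Nr1d1, for REV-ERB alpha, lies on chromosome 10 from 83728318 to 83735705 on the minus strand. Nr1d1 was at 10.5, 15.4, 15.96, 13.02 and 27.3 FPKM in bleomycin females, against 11.1, 6.91, 6.25, 19.0 and 17.6 FPKM in sham females. In bleomycin males it was at 18.6, 23.0, 14.7, 11.1 and 25.1 FPKM, against 19.8, 25.3, 25.1, 59.7 and 39.8 FPKM in sham males. The groups overlapped in both sexes, with sham males 4 and 5 the highest of all lungs. Nr1d1 fell by 0.95 ± 0.36 in males (adjusted p = 0.039), and the female value was 0.38 ± 0.35 (adjusted p = 0.49). The male call was lost under 14 of 29 alternatives, where the adjusted p ran from 0.00736 to 0.265, and without sham male 4 the value was −0.62 (adjusted p = 0.16).

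The end of Nr1d1 overlaps Thra, the thyroid hormone receptor alpha gene on the other strand, over 1619 bases. Thra averaged 16.1 ± 2.24 FPKM in bleomycin females and 15.2 ± 2.68 in bleomycin males, against 29.6 ± 2.65 in sham females and 29.8 ± 3.69 in sham males (SD, n = 5 each). The libraries were stranded, but no source used here says if the counting was stranded, so reads of this stretch may stand under either gene, and Nr1d1 values are uncertain to that extent.

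Dbp encodes an output factor of the PAR bZIP family that drives rhythmic genes through D-boxes, and lies on chromosome 1 from 96175440 to 96180745 on the plus strand. Dbp was at 5.03, 6.30, 7.09, 3.35 and 22.2 FPKM in bleomycin females, against 2.20, 2.44, 2.64, 3.44 and 2.84 FPKM in sham females. Bleomycin males had Dbp at 11.3, 24.1, 16.5, 3.52 and 25.8 FPKM, against 4.27, 4.87, 3.26, 9.56 and 7.32 FPKM in sham males. Replicate 4 of each bleomycin group lay within the sham range of its sex, and the other bleomycin lungs above it. Dbp rose by 1.63 ± 0.48 in females (adjusted p = 0.02) and by 1.40 ± 0.48 in males (adjusted p = 0.025).

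Both calls for Dbp were lost without replicate 5 of the bleomycin group. The female value was then 0.98 (adjusted p = 0.0998) and the male value 1.19 (adjusted p = 0.0608). Without the neighbouring-organ libraries the male value was 0.78 (adjusted p = 0.36), and the female value 1.55 (adjusted p = 0.0522). Over all alternatives the adjusted p ran from 0.00245 to 0.143 in females and from 0.00215 to 0.36 in males.

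The ratio of Dbp to Bmal1 FPKM puts an output gene over an activator within each lung. It was 0.633, 0.800, 1.25, 0.372 and 6.23 in bleomycin females, against 0.136 to 0.283 (median 0.173) in sham females. Among bleomycin males the ratio was 1.45, 3.56, 2.65, 0.450 and 6.59, against 0.374, 0.430, 0.259, 1.06 and 0.856 in sham males. All bleomycin females were above all sham females, while bleomycin male 4 lay among the sham males and the other bleomycin males above them. The replicates numbered 5 had the highest ratio of each bleomycin group and the replicates numbered 4 the lowest.

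**Figure D3:**
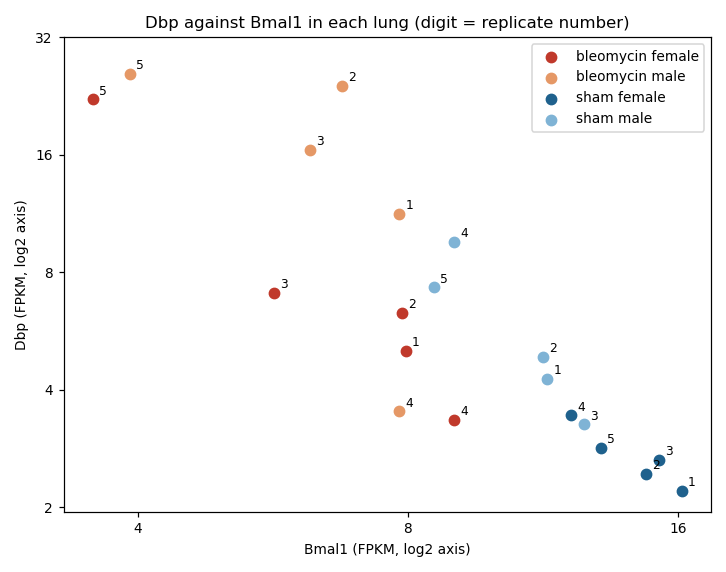
Dbp (y axis) against Bmal1 (x axis), both in FPKM on log2 axes, 1 point per lung with its replicate number, for bleomycin females, bleomycin males, sham females and sham males. Within each group, lungs with less Bmal1 tend to have more Dbp. Bleomycin female 5 (3.56 and 22.2 FPKM) and bleomycin male 5 (3.92 and 25.8 FPKM) lie farthest up on the left.

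Within the groups the 10 genes did not vary independently. The log2 counts per M (CPM) of each library were set against the mean of its group, and all 45 pairs of members were correlated over the 20 libraries, with a permutation test that shuffles libraries within groups (100000 draws, Benjamini-Hochberg over the 45 pairs). By Pearson's r, 15 of the 45 pairs passed, 8 of them positive and 7 negative, and 13 of those also passed by Spearman's rho. The share of pairs of other tested genes that would pass was not counted. The count therefore cannot be read as particular to clock genes. None of the 17 pairs that contain Per1 or Cry1 passed. Over the 10 genes, the deviations of the same-numbered bleomycin female and bleomycin male correlated at 0.52, −0.76, 0.56, 0.94 and 0.94 for replicates 1 to 5. The permutation test treats these lungs as independent, and what same-numbered lungs share, if anything, is not in the labels. If they are not independent, the permutation p-values given here may be too small.

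Bmal1 and Dbp ran against each other (r = −0.83, permutation p = 7e-05, adjusted p = 0.0023). The rank correlation was −0.87 (permutation p = 1e-05, the smallest these draws can give, adjusted p = 0.00045). Without bleomycin female 5 and bleomycin male 5, the lungs farthest out in Bmal1, r was −0.78 (permutation p = 5e-05). It was −0.83 over the 10 bleomycin libraries alone and −0.91 over the 10 sham libraries alone. The opposition of Bmal1 and Dbp within a group was thus present in sham lungs as well as in injured ones.

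Other pairs followed the same division. Bmal1 and Npas2 moved together (r = 0.73, permutation p = 0.0099, adjusted p = 0.032, rho = 0.80 with adjusted p = 0.011). Nr1d1 and Dbp moved together (r = 0.69, permutation p = 1e-04, adjusted p = 0.0023, rho = 0.72 with adjusted p = 0.0031), and r was 0.67 without sham female 4 and sham male 4. Bmal1 ran against Nr1d1 (r = −0.61, permutation p = 0.00016, adjusted p = 0.0024, rho = −0.65 with adjusted p = 0.0089), and r was −0.59 without bleomycin female 5 and bleomycin male 5. Npas2 ran against Dbp (r = −0.75, permutation p = 0.0017, adjusted p = 0.0085, rho = −0.74 with adjusted p = 0.012). Ciart moved with Dbp (r = 0.73, permutation p = 0.0011, adjusted p = 0.0071, rho = 0.79 with adjusted p = 0.0082).

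Of the 15 pairs, 5 no longer held at an unadjusted p under 0.05 once the 2 lungs farthest from the median of the first gene were left out. Per2 with Per3 was at r = 0.64 (permutation p = 0.065) in place of 0.87, with a rank correlation over all libraries of 0.72 (adjusted p = 0.029), and over the 10 sham libraries r was −0.05. Bmal1 with Per3 was at −0.18 (permutation p = 0.51) in place of −0.77, so this relation rests on bleomycin female 5 and bleomycin male 5. The others were Clock with Npas2 (permutation p = 0.17), Per2 with Dbp (permutation p = 0.099) and Per3 with Nr1d1 (permutation p = 0.13). Bmal1 against Per2 kept r = −0.53 (permutation p = 0.036) without those lungs, in place of −0.84, but over the sham libraries alone it was −0.10.

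**Figure D4:**
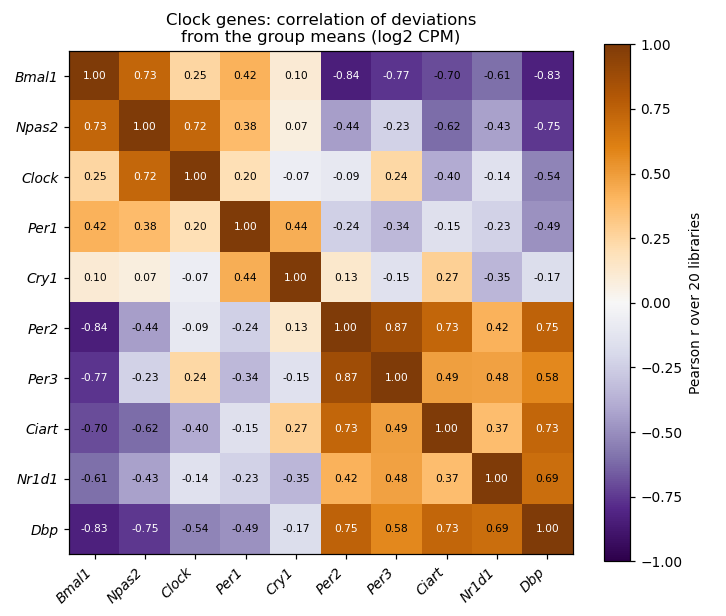
Pearson's r between each pair of clock genes over 20 libraries after subtracting group means. Rows and columns are genes, the colour scale runs from −1 to 1, and each cell prints its r. Bmal1 and Npas2 are positive with each other (0.73) and negative with Dbp (−0.83 and −0.75). No pair that contains Per1 or Cry1 had an adjusted p under 0.05 in the permutation test.

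**Figure D5:**
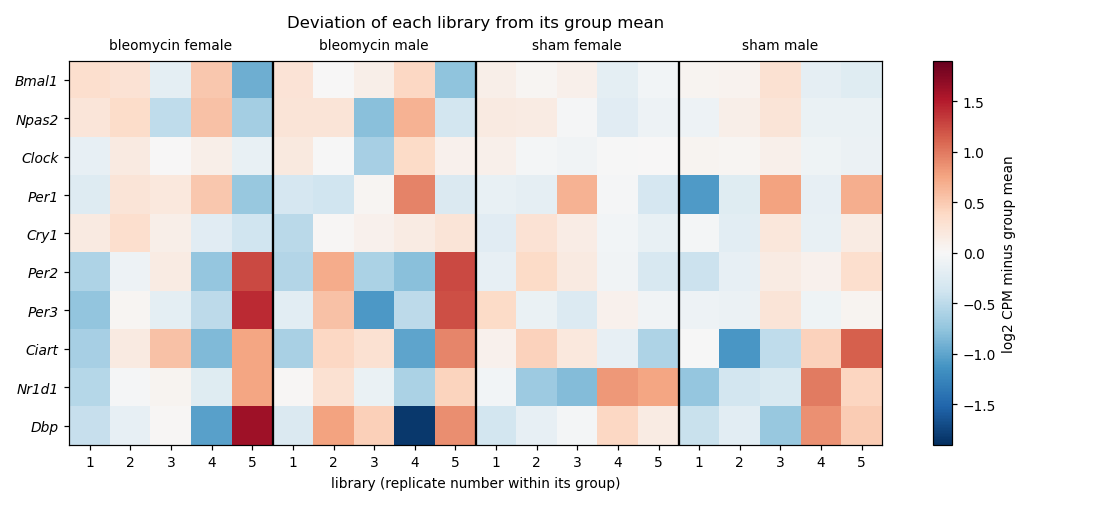
Deviation of each library from its group mean (colour, log2 CPM) for the clock genes (rows) in bleomycin females, bleomycin males, sham females and sham males (columns, with replicate numbers). Replicate 5 of both bleomycin groups is low in Bmal1 (−0.92 in bleomycin females and −0.77 in bleomycin males) and high in Per2 (1.26 and 1.25).

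As a description, all 15874 other tested genes were ranked by the same within-group correlation, over the 20 libraries, with Bmal1 and with Dbp. The genes most like Dbp were Hlf (r = 0.86), Tef (0.82), Smarcd2 (0.82), AY172581.9 (0.82) and Eef2k (0.82). Hlf and Tef, at ranks 1 and 2, encode the other PAR bZIP factors, the family DBP belongs to. The genes most opposite to Dbp were Dnajb4 (−0.86), Etv3 (−0.85), Dhx9 (−0.83), Lrrc8c (−0.83) and Bmal1 (−0.83).

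For Bmal1 the most opposite genes were Hlf (−0.86), Per2 (−0.84), Tef (−0.83), Dbp (−0.83) and Nsd3 (−0.81). The genes most like it were Relb (0.81), the gene with no symbol ENSRNOG00000063856 (0.81), Cyfip2 (0.79), Btg1 (0.79) and Arih2 (0.79). Npas2 came at rank 20 and Clock at rank 3412. The libraries share depth and tissue makeup across genes, so these ranks carry no p.

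Hlf and Tef followed Dbp from lung to lung within groups, but neither passed after bleomycin in either sex. Hlf had log2 fold changes of −0.17 ± 0.31 in females (adjusted p = 0.74) and −0.05 ± 0.31 in males (adjusted p = 0.92). Tef had −0.61 ± 0.27 in females (adjusted p = 0.11) and −0.42 ± 0.26 in males (adjusted p = 0.21). Tef averaged 21.1 ± 10.4 FPKM in bleomycin females and 24.7 ± 10.7 in bleomycin males, against 31.1 ± 4.97 in sham females and 31.8 ± 4.05 in sham males (SD, n = 5 each).

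Of the 21 further clock genes 20 were tested. In females 4 rose (Nr1d2, Bhlhe40, Timeless and Wee1) and 1 fell (Nampt), where 13.2% and 8.38% of all tested genes did. In males 3 rose (Cry2, Bhlhe40 and Bmal2) and 3 fell (Fbxw11, Gsk3b and Nampt), against 22.6% and 19.3% of all tested genes, so neither count stands above the background. Bhlhe40, for the repressor DEC1, rose by 1.61 ± 0.25 in females (adjusted p = 0.00012) and by 1.12 ± 0.25 in males (adjusted p = 0.0015). It was at 20.5 to 41.2 FPKM in bleomycin females and 21.8 to 39.6 in bleomycin males, against 8.03 to 12.9 in sham females and 10.2 to 18 in sham males, with no overlap in either sex. Nampt, whose enzyme makes an NAD precursor, fell by 0.29 ± 0.10 in females (adjusted p = 0.047) and by 0.58 ± 0.10 in males (adjusted p = 0.00019).

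Nr1d2, for REV-ERB beta, rose by 0.87 ± 0.24 in females (adjusted p = 0.014), with −0.20 ± 0.24 in males (adjusted p = 0.53). Bmal2, a paralog of Bmal1, was at 0.407 to 2.58 FPKM in bleomycin males and at 0 to 0.0696 FPKM in sham males, with 14 counts in the highest sham male, and its fitted log2 fold change of 4.89 ± 0.90 depends on the prior count at such levels. It passed the limit for testing through 4 bleomycin males and 1 bleomycin female.

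Females and males with the same treatment were compared next. In sham lungs 0 of the 10 genes passed in edgeR's quasi-likelihood test, where 0.113% of all tested genes were higher in females and 0.409% lower, and 4 had an unadjusted p under 0.05 (Cry1, Ciart, Nr1d1 and Dbp), against 10.3% of all tested genes. DESeq2 called 3 and limma-voom with sample weights called 3, in each case Cry1, Ciart and Nr1d1. The share of all tested genes that these methods called was not counted, so their counts cannot be set against the edgeR shares. The FPKM of females and males did not overlap for 4 members (Per3, Cry1, Ciart and Nr1d1), against 5.08% of all tested genes.

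Among sham lungs, Ciart was at 0.0808 to 0.197 FPKM in females and at 0.233 to 1.10 FPKM in males. Its log2 fold change of females over males was −2.01 ± 0.47 (adjusted p = 0.062, 95% interval −2.99 to −1.04). Nr1d1 was at 6.25 to 19.0 FPKM in sham females and at 19.8 to 59.7 FPKM in sham males, with a log2 fold change of −1.47 ± 0.36 (adjusted p = 0.079, 95% interval −2.23 to −0.72). Cry1 ran the other way, at 8.47 to 12.1 FPKM in sham females and 5.61 to 7.31 FPKM in sham males, with 0.64 ± 0.15 (adjusted p = 0.069, 95% interval 0.32 to 0.95). With adjusted p-values between 0.06 and 0.08, these differences were past the threshold under some settings and not under others. Over all alternatives the adjusted p ran from 0.0034 to 0.469 for Ciart, from 0.00306 to 0.328 for Nr1d1 and from 0.00594 to 0.428 for Cry1.

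In bleomycin lungs 1 of the 10 genes passed and was higher in females, where 11.7% of all tested genes were higher and 8.72% lower. It was Clock, at 6.83 to 8.80 FPKM in bleomycin females and 3.17 to 6.57 FPKM in bleomycin males, with a log2 fold change of 0.51 ± 0.13 (adjusted p = 0.011). It was the 1 member without overlap, against 7.55% of all genes. Without the neighbouring-organ libraries the value was 0.51 with an adjusted p of 0.0718, and over all alternatives that p ran from 0.00141 to 0.12. When bleomycin female 5 was left out, 3 members passed, with Per2 (−1.23, adjusted p = 0.0256) and Dbp (−1.53, adjusted p = 0.0219) lower in females, while their values with it were −0.76 and −0.87. Of the 20 further clock genes tested, 3 were higher in bleomycin females, Timeless (0.67 ± 0.16, adjusted p = 0.0096), Gsk3b (0.46 ± 0.14, adjusted p = 0.026) and Nampt (0.31 ± 0.10, adjusted p = 0.039). Cry2 was lower (−0.44 ± 0.11, adjusted p = 0.013).

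The difference of the responses (females minus males) asks whether bleomycin moved a gene differently in the sexes. None of the 10 genes passed in edgeR's quasi-likelihood test, where 3.65% of all tested genes were higher and 2.04% lower, and 3 had an unadjusted p under 0.05 (Clock, Cry1 and Nr1d1), a share close to the 26.5% of all tested genes. DESeq2 called 0, and limma-voom with sample weights called Clock. Nr1d1 had the widest gap, 1.32 ± 0.50 (adjusted p = 0.1, 95% interval 0.27 to 2.37). Clock differed by 0.42 ± 0.18 (adjusted p = 0.14, 95% interval 0.05 to 0.79) and Cry1 by −0.52 ± 0.21 (adjusted p = 0.13, 95% interval −0.96 to −0.07). For Bmal1 and Dbp the differences were −0.36 ± 0.31 (95% interval −1.01 to 0.28) and 0.24 ± 0.66 (95% interval −1.15 to 1.63), so that sizeable differences in either direction lie within the interval for Dbp.

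Among the further clock genes 2 of 20 passed for the difference, both higher, where 3.65% of all tested genes were higher. Gsk3b, for a kinase that marks clock proteins, had 0.70 ± 0.19 (adjusted p = 0.042). Timeless, for a replication fork protein named after a fly clock gene, had 0.82 ± 0.23 (adjusted p = 0.042). Of 5 markers of cycling cells, 3 were also higher for the difference and 0 lower. The part of cycling cells in the Timeless value was not tested.

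Levels of markers of some cell types moved with the treatment as well. For scale, 13.2% of all tested genes rose and 8.38% fell in females, and 22.6% rose and 19.3% fell in males. In whole lung, fewer cells of a type and less RNA per cell cannot be told apart. The 5 markers of cycling cells summed to 74.1 to 108 FPKM in bleomycin females and 42.6 to 92.7 in bleomycin males, against 8.85 to 12.9 in sham females and 11.6 to 20.1 in sham males, and 5 of 5 rose in each sex. Fibroblast markers summed to 985 to 1542 FPKM in bleomycin females and 1334 to 1982 in bleomycin males, against 214 to 352 in sham females and 447 to 765 in sham males, and 3 of 5 rose in each sex. Endothelial markers summed to 360 to 499 FPKM in bleomycin females and 178 to 376 in bleomycin males, against 403 to 454 in sham females and 423 to 578 in sham males. Of the 5, 1 rose and 1 fell in females and 4 fell in males.

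Alveolar type 1 markers summed to 1277 to 1942 FPKM in bleomycin females and 403 to 1376 in bleomycin males, against 2012 to 2613 in sham females and 1764 to 2411 in sham males, with 2 of 5 lower in females and 4 of 5 in males. Macrophage markers summed to 131 to 318 FPKM in bleomycin females and 258 to 639 in bleomycin males, against 103 to 123 in sham females and 78.9 to 109.96 in sham males. Of the 4 tested, 2 rose in females and 3 in males, and Marco was at 0 in all sham females. Club cell markers, of the airway cells in which the lung clock is well studied, summed to 10423 to 16670 FPKM in bleomycin females and 2404 to 16483 in bleomycin males, against 25736 to 40842 in sham females and 18856 to 43155 in sham males, and 2 of 4 fell in each sex. Of 5 alveolar type 2 markers 0 changed in females and 2 fell in males. Of 4 ciliated cell markers tested 1 fell in each sex, and of 4 neutrophil markers tested 0 changed in either sex. In bleomycin lungs 5 of 5 endothelial, 4 of 5 alveolar type 1, 2 of 5 cycling cell and 1 of 5 fibroblast markers were higher in females. Of the tested markers there, 4 of 4 for fat and 2 of 4 for macrophages were lower. Among all tested genes 11.7% were higher and 8.72% lower. The part of these cells in the clock gene results was not tested.

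Glucocorticoids and acute stress signals are known inducers of Per1, so genes that respond to glucocorticoids and immediate early genes were counted for context. Of 8 glucocorticoid-responsive genes tested, 1 rose in females (Sgk1, 0.86 ± 0.20, adjusted p = 0.0042), while in males 3 rose (Sgk1, Angptl4 and Fkbp5) and 1 fell (Klf9). Of 8 immediate early genes tested, 3 rose in females (Fosb, Nr4a1 and Atf3) and 1 fell in males (Jun). Among all tested genes 13.2% rose and 8.38% fell in females, and 22.6% rose and 19.3% fell in males. The part of these signals in Per1 or the other members was not tested.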

How the data were processed

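Lung mRNA of 20 rats in 4 groups of 5 was analysed from 1 deposited table that gives counts and FPKM for every gene and sample, per the file headers. Per the labels' protocols, the authors trimmed reads with Cutadapt 1.10, checked them with FastQC 0.10.1, aligned them with HISAT2 2.0 and made the FPKM values with StringTie 1.3.4. How the deposited whole counts were made, and if strand mattered, is not given in the sources used here. Multiples of 4 are in excess among them: the value 4 occurs 7103 times, 3 occurs 3459 times and 5 occurs 2447 times. The organism field names mouse, but the stock, the aligned genome and the gene identifiers are those of rat.

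Genes with at least 0.5 FPKM in at least 5 samples (15875 of 23799) were tested with edgeR 4.0.16 in R 4.3.3 (TMM scaling, robust quasi-likelihood test, 1 mean per group, all 20 libraries, prior count 0.125), two-sided, with Benjamini-Hochberg adjustment over all of them. Intervals are 95% intervals of the same fit. The comparisons were bleomycin against sham in each sex, females against males in each treatment, and the difference of the responses. Within-group correlations used TMM-scaled log2 CPM with a prior count of 2. The members, lists and likeness rule (the 5 highest and 5 lowest correlations with Bmal1 and with Dbp) were chosen with earlier results of these data known. All members are named, and of the further clock genes those that passed, with Hlf and Tef also named through the likeness rule. Some further clock genes are not reported here. The marker and context lists are given as counts and sums, with examples. DESeq2 1.42.0, limma 3.58.1, other scalings and filters, and fits without some libraries were the alternatives. Leaving out all 4 libraries of a replicate number was an alternative chosen after seeing the data.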

Additional observations from a re-analysis of the deposited data

Results flagged for a closer look

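The level of each clock gene, and of some further clock genes, was set against the other 4 lungs of its group. It stood apart (a gap of more than 0.71 of the group's range, Dixon's limit for 5 samples) in 11 of 76 groups examined. Dixon's limit passes about 1 in 20 groups by chance where values are normal and independent. Here the genes share lungs and vary together, values are FPKM, and Hlf and Tef were named through their correlations over these lungs. The count was therefore not tested against chance. In bleomycin female 5 this held for Per2 (10.9 FPKM, next lung 4.81), Per3 (12.7, next 4.74), Dbp (22.2, next 7.09), Hlf (3.75, next 1.59) and Tef (39.0, next 19.6), all on the high side. Clock was low in bleomycin male 3 (3.17 FPKM, next 5.72) and high in sham female 1 (10.4, next 9.11). Per1 was high in bleomycin male 4 (33.3 FPKM, next 17.1) and in sham female 3 (27.5, next 16.6). Hlf was low in sham male 3 (1.57 FPKM, next 2.72), and Gsk3b was low in sham male 2 (12.2 FPKM, next 13.04).

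The response to bleomycin differed between the sexes by edgeR's test of the difference for 2 further clock genes. The female response minus the male response was 0.70 for Gsk3b (adjusted p = 0.042) and 0.82 for Timeless (adjusted p = 0.042) on the log2 scale. By the same test 3 of 5 cycling cell markers were higher and 0 lower.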

How the results depend on the processing

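Npas2 in both sexes, Bmal1 and Ciart in females and Clock in males passed with their direction under every alternative that gave a value. No called change of a member turned round under any alternative (331 kept their call and 73 lost it). With bleomycin against sham, the 7 calls in males became 4 with the mitochondrial percent of counts as a covariate (5.43 to 9.56% in bleomycin males, 4.42 to 7.63% in sham males) and 2 without the neighbouring-organ libraries, and 3 to 7 with libraries left out. The 6 calls in females became 3 with limma on log2(FPKM + 0.1), 3 with limma on log2(FPKM + 1), and 3 to 6 with libraries left out. Females against males in sham lungs gave 0 calls, but 3 with DESeq2, 3 with limma-voom, 3 with only the groups compared, 2 with the mitochondrial covariate and 0 to 1 with libraries left out (1 without sham male 2 and 1 without sham male 3, Ciart each time). The 1 call in bleomycin lungs became 3 with limma-voom, 0 with only the groups compared, 0 with the mitochondrial covariate, 0 without the neighbouring-organ libraries and 0 to 3 with libraries left out. The difference of the responses gave 1 call with limma-voom and 0 to 1 with libraries left out (Clock without bleomycin male 4). The share of all tested genes called was not counted for the alternatives, and fits with libraries left out have fewer animals. The cause of these changes was not tested.

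Values that turned round were all uncalled. Without the neighbouring-organ libraries, Per1 was at 0.70 in males, and females against males gave 0.42 for Per1 and 0.15 for Per2 in sham lungs. In bleomycin lungs it gave −0.13 for Bmal1, 0.13 for Per2, 0.57 for Per3 and 0.10 for Nr1d1, and the difference for Per1 was −0.24. With the mitochondrial covariate, females against males in bleomycin lungs gave −0.23 for Bmal1, 0.36 for Per2, 0.70 for Per3, 0.54 for Nr1d1 and 0.063 for Dbp, and the difference for Per2 was 0.46. The difference for Dbp was −0.020 with limma on log2(FPKM + 1) and −0.29 with limma-voom. With libraries left out, Per1 in males ran from −0.49 to 0.15. Females against males ran from −0.40 to 0.058 for Per1 and −0.20 to 0.096 for Per2 in sham lungs. In bleomycin lungs it ran from −0.071 to 0.25 for Bmal1, −0.76 to 0.21 for Per3 and −0.028 to 0.26 for Cry1. The differences ran from −0.087 to 0.87 for Per3 and −0.42 to 0.52 for Dbp.

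Same-numbered libraries did not deviate together throughout (correlations from −0.14 to 0.43 over all genes, and from −0.76 to 0.94 over the 10 members). The replicate numbers were therefore not taken as pairs in the main fit. Between bleomycin females and bleomycin males the correlations over members were 0.52, −0.76, 0.56, 0.94 and 0.94 for replicates 1 to 5, so dependence of some of these lungs is not excluded. With the replicate block, females lost Cry1 (5 calls), males kept 7 calls, and sham females against sham males gained Nr1d1 (1 call). The fewest counts of a member in any library were 11, for Ciart, and at least 558 for the other members.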
